A study of Mus musculus with 8 samples.

Results

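The mRNAs of 7 genes of the p24 family of cargo receptors, Tmed9, Tmed4, Tmed2, Tmed10, Tmed1, Tmed3 and Tmed5, were followed through pull-downs of the RNA-binding exoribonuclease Exosc10 from embryonic mouse cortex. Tmed9 was chosen because of its large share in the Exosc10 pull-down, and the other 6 genes because they belong to its family. The 7 genes are among 54838 Ensembl gene IDs counted in every library, and all 7 had enough reads to be tested, as had 16716 genes in all. Their symbols were given together with their IDs and were not read from the count files.

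The study used RNA immunoprecipitation sequencing (RIP-seq), in which a protein is captured from lysed cells by an antibody and its attached RNA is sequenced. Cells dissociated from the cortex of C57BL/6 embryos at embryonic day 12.5 were lysed and pulled down with a rabbit antibody against Exosc10 (4 libraries) or, as a mock, with normal rabbit IgG (4 libraries). No genotype, drug or other treatment distinguishes the groups, and no library of the RNA before pull-down was analysed here. Total counts ran from 20967743 to 34506709, and the libraries numbered 1 were the shallowest of each group. Separate litters or cultures are not stated for the libraries, so p-values reflect only how far these libraries vary, and that variation may be technical. The labelled tissue was not checked against marker genes, since the files give Ensembl IDs without symbols.

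The p24 proteins are small membrane proteins that cycle between the endoplasmic reticulum and the Golgi apparatus. Their lumenal part holds cargo, best known for proteins with a GPI anchor, and their short cytosolic tail binds the COPI and COPII vesicle coats. They fall into alpha (Tmed9 and Tmed4), beta (Tmed2), gamma (Tmed1, Tmed3 and Tmed5) and delta (Tmed10) subfamilies, and members of different subfamilies join in complexes that stabilise each other. Exosc10 is a nuclear enzyme that trims and degrades RNA from its 3′ end as part of the RNA exosome.

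Reads of Tmed9 were more frequent with the Exosc10 antibody than with IgG, and the other genes of its family did not all differ in that direction. Of the other 6 genes, Tmed1 was higher with Exosc10, Tmed5 was lower, and 4 did not pass the test. Among these 4, Tmed10 passed in 6 of 18 alternative fits, while Tmed1 lost its call in 4 of the 18 and Tmed5 in 6. The test was edgeR's quasi-likelihood test read at an adjusted p of 0.05, which called 13.7% of all tested genes, 7.92% higher and 5.82% lower. The median log2 fold change was -0.30 over the 6 genes and -0.03 over all tested genes. A negative value was found for 5 of the 6 and for 8764 of all 16716 tested genes. Values are CPM, read counts scaled to a common library total after normalization by the trimmed mean of M-values, so each is a share of its own pull-down and not an amount. A difference between the groups is thus one in the RNA recovered with each antibody. In such bulk libraries the cells that this RNA came from cannot be told apart.

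**Figure D1:**
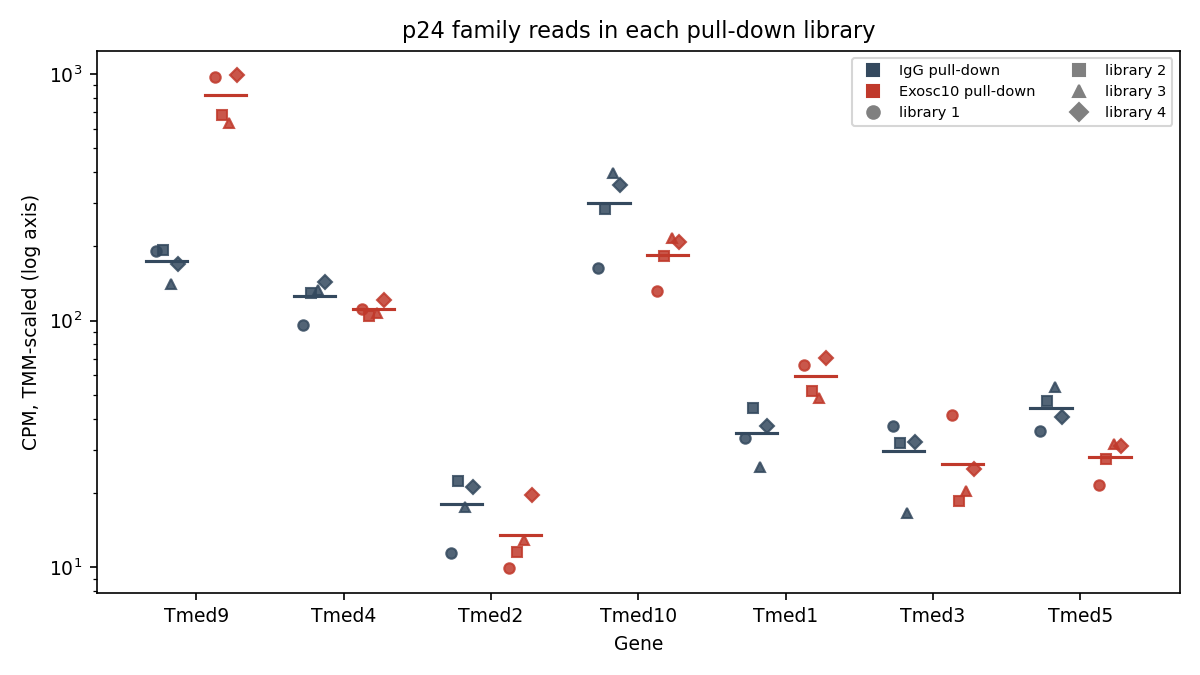
Scaled CPM on a log axis for the 7 p24 genes in each library, with the IgG pull-down in dark blue, the Exosc10 pull-down in red, a symbol for each library number and a line at the group mean. Tmed9 stands at 631 to 985 CPM with Exosc10 and 141 to 193 CPM with IgG, while the groups of Tmed4, Tmed2, Tmed10 and Tmed3 overlap.

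Within the alpha subfamily, Tmed9 and Tmed4 differed in their values. Tmed9 (ENSMUSG00000058569), a receptor also known to retain misfolded secretory proteins, stood at 971, 682, 631 and 985 CPM in Exosc10 libraries 1 to 4 and at 191, 193, 141 and 170 CPM in IgG libraries 1 to 4. The lowest Exosc10 library was thus above the highest IgG library, and Exosc10 libraries 1 and 4 lay above the other two. The means were 817 ± 187 CPM and 174 ± 24.1 CPM (SD, n = 4 each), and the log2 fold change was 2.23 ± 0.21 (SE), or 4.70-fold with a 95% confidence interval of 3.45 to 6.42. This ranked 6 among the 16716 genes by fold change, and by mean CPM the gene ranked 190. As the gene was chosen by this comparison, its values are a description and no test is given. The interval and the rank are not corrected for that choice. The fewest reads of Tmed9 in a library were 3418.

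Tmed4 (ENSMUSG00000004394), the other alpha member, lay slightly lower with Exosc10, within the spread between libraries. The Exosc10 libraries gave 112, 104, 108 and 121 CPM and the IgG libraries 95.6, 130, 133 and 143 CPM. All 4 Exosc10 libraries lay within the range of the IgG libraries, and they spread less, with a coefficient of variation of 6.71% against 16.5%. That range and spread include IgG library 1, the lowest, and all 4 Exosc10 libraries lay below IgG libraries 2 to 4. The log2 fold change of Tmed4, -0.17 ± 0.17 (SE), had a 95% interval of -0.54 to 0.19 and did not pass (edgeR adjusted p = 0.528).

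Tmed2 (ENSMUSG00000029390), the beta member, needed for early mouse development, was counted sparsely, at 214 to 673 reads per library. Its values were 9.91, 11.6, 12.9 and 19.7 CPM in the Exosc10 pull-downs and 11.4, 22.4, 17.5 and 21.1 CPM in the mock. The groups overlapped, and library 1 was the lowest of both. Each Exosc10 library lay below the IgG library of the same number. The log2 fold change of -0.42 ± 0.25 (SE, 95% interval -0.96 to 0.12) did not pass the test (edgeR adjusted p = 0.279). With the library number fitted as a block the value was -0.43 (95% interval -0.80 to -0.05). That did not pass either (edgeR adjusted p = 0.0885).

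Tmed10 (ENSMUSG00000021248), the delta member, also known as a regulator of gamma-secretase, took 132, 182, 216 and 208 CPM of the Exosc10 pull-downs and 163, 282, 397 and 353 CPM of the mock. IgG library 1 lay inside the Exosc10 range, and the other 3 IgG libraries lay above it. Each Exosc10 library lay below the IgG library of the same number. The log2 fold change was -0.69 ± 0.25 (SE, 95% interval -1.24 to -0.15), which did not pass the threshold over all genes (edgeR adjusted p = 0.0830). That outcome varied with the libraries kept and with the method. Without IgG library 1 the value was -0.89 and passed (edgeR adjusted p = 0.00809), and without both libraries numbered 1 it was -0.77 (edgeR adjusted p = 0.00133). It passed too with DESeq2 (adjusted p = 0.0425), with limma-voom and sample weights (adjusted p = 0.000966) and with no filter on low counts (edgeR adjusted p = 0.0302). With the library number fitted as a block the value was -0.64 and also passed (edgeR adjusted p = 0.00611). Over 18 alternatives the adjusted p ran from 0.000966 to 0.245, and the sign stayed negative in all 18.

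Of the 3 gamma members 1 was called higher, 1 lower and 1 neither. Tmed1 (ENSMUSG00000032180), first described as a binding partner of the interleukin receptor family member ST2, stood at 66.2, 52.0, 48.4 and 70.7 CPM with Exosc10. In the IgG libraries it stood at 33.5, 44.1, 25.4 and 37.4 CPM, so that the groups did not overlap. Its log2 fold change was 0.76 ± 0.20 (SE, edgeR adjusted p = 0.0251), or 1.69-fold higher with a 95% interval of 1.25 to 2.28. The call was lost without Exosc10 library 2 or 4 or IgG library 3 or 4, at edgeR adjusted p-values of 0.0511, 0.0882, 0.0852 and 0.0616. Those fits called 880 to 1040 of all genes, against 2297 in the main fit. Over 18 alternatives the p ran from 0.00242 to 0.0882 and the log2 fold change from 0.63 to 0.89.

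Tmed5 (ENSMUSG00000063406), a gamma member implicated in the secretion of Wnt ligands, ran the other way. Exosc10 libraries 1 to 4 gave 21.5, 27.6, 31.7 and 31.1 CPM. IgG libraries 1 to 4 gave 35.8, 47.4, 53.6 and 40.6 CPM, again without overlap. The log2 fold change was -0.66 ± 0.19 (SE, edgeR adjusted p = 0.0325), or 1.59-fold lower with a 95% interval of 1.20 to 2.10. Leaving out Exosc10 library 2, 3 or 4 gave edgeR adjusted p-values of 0.0961, 0.0509 and 0.0712, and leaving out IgG library 2, 3 or 4 gave 0.0797, 0.114 and 0.0665, so the call was lost in each case. Those fits called 880 to 1370 of all genes, against 2297 in the main fit. Over 18 alternatives the p ran from 0.00245 to 0.114 and the log2 fold change from -0.75 to -0.55.

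Tmed3 (ENSMUSG00000032353), the third gamma member, gave 41.3, 18.5, 20.3 and 25.0 CPM in the Exosc10 pull-downs and 37.5, 31.8, 16.6 and 32.0 CPM in the mock. Library 1 was the highest of both groups, and the groups overlapped widely. With a log2 fold change of -0.17 ± 0.28 (SE) and a 95% interval of -0.76 to 0.43 it did not pass (edgeR adjusted p = 0.726). Of all tested genes, 19.1% had groups that did not overlap in either direction, 10.6% with Exosc10 above and 8.45% with Exosc10 below, and of the 6 genes chosen by family Tmed1 and Tmed5 had this property.

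**Figure D2:**
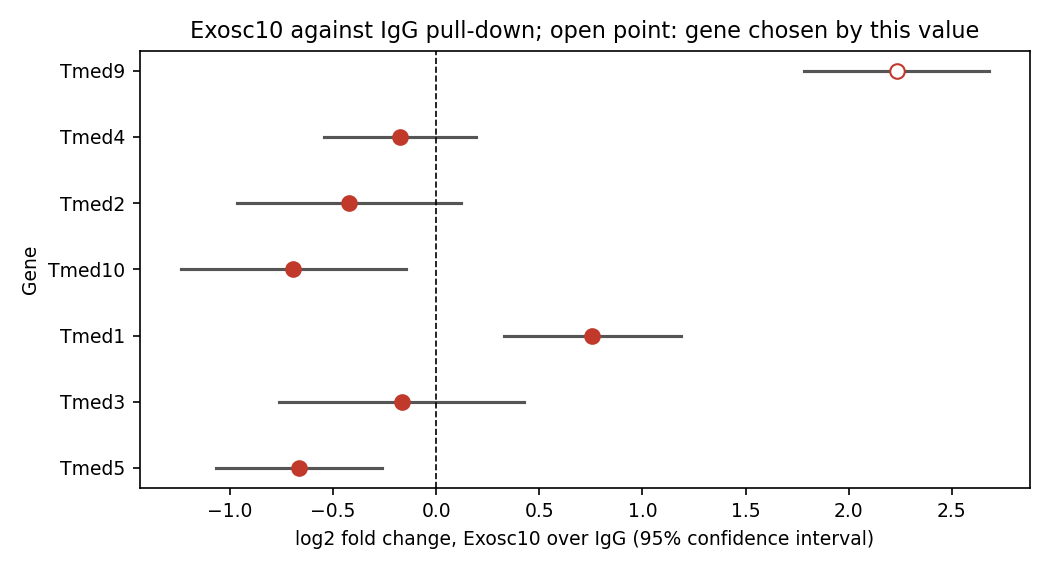
Log2 fold change of each p24 gene, Exosc10 over IgG pull-down (n = 4 each), as points with the 95% confidence interval of the edgeR fit as lines and a dashed line at no difference. The open point of Tmed9, at 2.23, is the gene chosen by this value; among the others the interval of Tmed1 lies above 0 and those of Tmed5 and Tmed10 below it, Tmed10 without passing the adjusted threshold.

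Ratios of reads between genes of the same library do not depend on how libraries are scaled. Each of the 15 pairs among the 6 genes other than Tmed9 was compared between the pull-downs, after the values had been seen. The test was an exact permutation of the group labels, two-sided, with 70 assignments and a smallest possible p of 0.0286. In 5 pairs the groups did not overlap, and all 5 were the pairs with Tmed1. The share of such pairs among other genes was not computed, so the 5 cannot be set against a background. The ratio of Tmed1 to Tmed5 ran from 1.53 to 3.08 with Exosc10 and from 0.474 to 0.935 with IgG, a 2.70-fold difference in geometric means. The ratio of Tmed1 to Tmed10 differed 2.66-fold, that of Tmed1 to Tmed2 2.29-fold, that of Tmed1 to Tmed3 1.92-fold and that of Tmed1 to Tmed4 1.90-fold, all higher with Exosc10. Each had an exact p of 0.0286 and 0.0857 after Benjamini-Hochberg adjustment over the 15 pairs, so none passed 0.05. With this design at least 9 of the 15 pairs would have to reach the smallest p before any could pass. A gene enters only 5 of the 15, so the test could not decide about a difference of Tmed1 alone. Tmed1 and Tmed5 each separated the groups in opposite directions, so their ratio could not have overlapped. The 5 pairs share the values of Tmed1 and are not independent of its difference given above. In the pairs without Tmed1 the groups overlapped. The log2 ratio of Tmed10 to Tmed5 was 2.71 ± 0.07 with Exosc10 and 2.69 ± 0.40 with IgG (SD, n = 4 each). The difference was 0.02 ± 0.20 (SE, exact permutation p = 0.886, adjusted p = 0.949). Others differed more. The ratio of Tmed4 to Tmed5 was 1.42-fold higher with Exosc10 (exact permutation p = 0.0571, adjusted p = 0.143). That of Tmed10 to Tmed4 was 1.40-fold lower (exact permutation p = 0.114, adjusted p = 0.245).

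The ratio of Tmed9 to Tmed1, the pair that were both higher with Exosc10, also shifted. It was 13.0 to 14.7 in the Exosc10 libraries and 4.37 to 5.71 in the IgG libraries. The ratio of Tmed9 to Tmed4 was 5.86 to 8.69 with Exosc10 and 1.06 to 2.00 with IgG. Both are given without a test, since they contain Tmed9.

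The division of the family's reads moved with Tmed9. Reads of Tmed9 made up 71.7%, 63.3%, 59.1% and 67.4% of the reads of the 7 genes in Exosc10 libraries 1 to 4, and 33.7%, 25.7%, 18.0% and 21.3% in IgG libraries 1 to 4. Read numbers depend on transcript length, so these shares compare the same gene between libraries and do not rank the genes. The summed share of the 7 genes was 1240 ± 198 CPM in the Exosc10 pull-down against 725 ± 107 CPM in the mock (SD, n = 4 each). As Tmed9 was chosen for its share in the Exosc10 pull-down, its larger part and this sum are no separate result about the family. Without Tmed9, the 6 others summed to 423 ± 42.1 CPM against 551 ± 122 CPM (SD, n = 4 each), in overlapping ranges of 383 to 476 and 377 to 643 CPM.

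**Figure D3:**
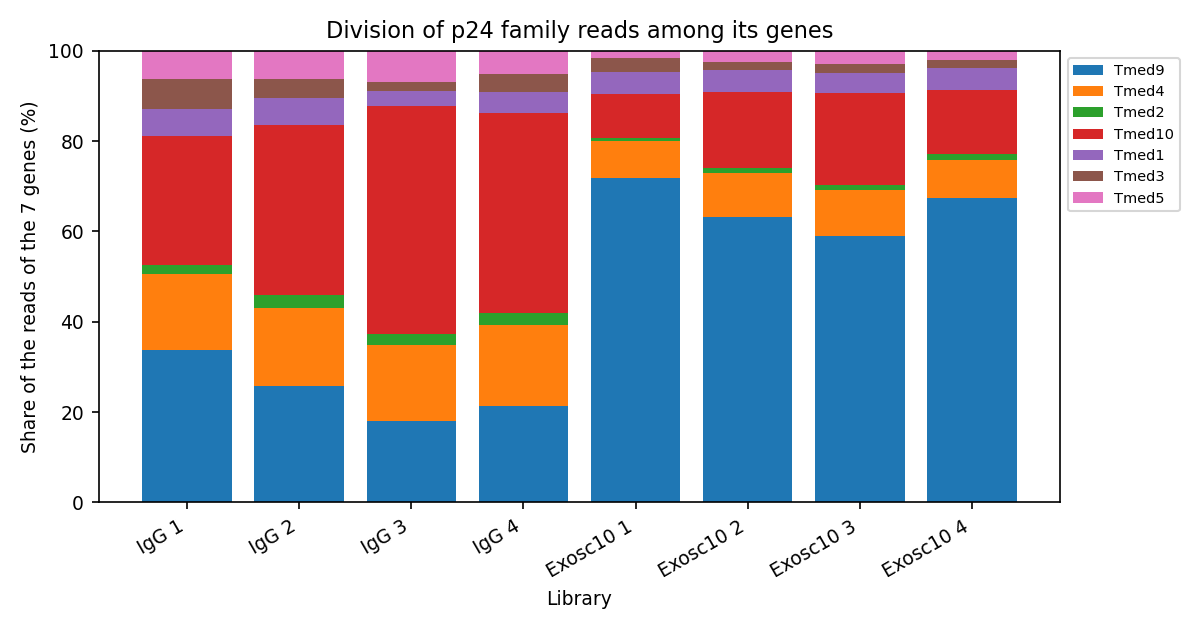
Stacked bars of the share of the 7 genes' reads, in percent, that fell to each p24 gene in each of the 8 libraries. The Tmed9 segment, of the gene chosen for its share in the Exosc10 pull-down, covers 59.1% to 71.7% in the Exosc10 libraries and 18.0% to 33.7% in the IgG libraries.

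Library 1 of each group stood off its group mean in several of the genes. In library 1 of each group Tmed10 lay below its group mean, by -0.46 with Exosc10 and -0.80 with IgG on the log2 scale, and Tmed2 by -0.39 and -0.62. Tmed3 was above its mean in the same libraries, by 0.72 and 0.41. Other libraries also stood off, such as IgG library 3 for Tmed3 (-0.76) and Exosc10 library 4 for Tmed2 (0.59). Deviations of Tmed9 from its group means followed those of Tmed1 (Pearson r = 0.87) and Tmed3 (r = 0.81), and ran against those of Tmed10 (r = -0.55) and Tmed5 (r = -0.52). Among the 11710 other genes with a mean of at least 5 CPM, 111 had a higher r with Tmed9 than Tmed1 had and 328 a higher r than Tmed3, the highest being 0.985. Of the same genes, 9413 had a higher r than Tmed10 and 9189 a higher r than Tmed5. Many genes thus ran against Tmed9 at least as strongly as Tmed10 and Tmed5 did. For Tmed2 and Tmed4 the same r was 0.10 and 0.00. These r values describe 8 libraries and share the scaling of each library. Among the gamma members r was 0.73 for Tmed3 with Tmed1, -0.35 for Tmed5 with Tmed1 and -0.83 for Tmed5 with Tmed3. Across subfamilies it was 0.83 for Tmed5 with Tmed10. The r of such pairs among other genes was not computed, so these have no background. A part of depth or preparation in this was not tested.

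**Figure D4:**
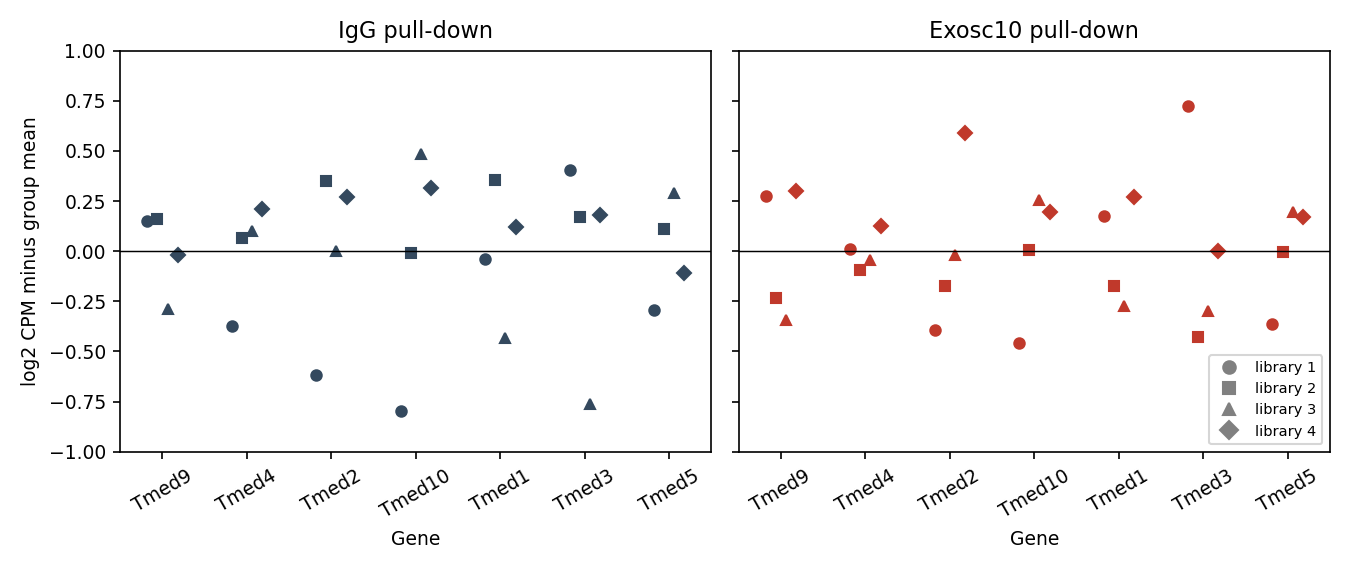
Log2 CPM of each p24 gene minus the mean of its group, for IgG libraries on the left and Exosc10 libraries on the right, with a symbol for each library number. The circles of library 1 lie below the zero line for Tmed2, Tmed10 and Tmed5 and above it for Tmed3 and Tmed9 in both panels.

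Of the same 11710 genes, those whose log2 CPM over the 8 libraries was most like that of Tmed9 were ENSMUSG00000053604 (Pearson r = 0.996) and ENSMUSG00000003644 (r = 0.993). These r values contain the difference between the pull-downs and are a description. In the Exosc10 and the IgG pull-down, ENSMUSG00000053604 had 59.9 ± 5.2 and 38.7 ± 2.1 CPM and ENSMUSG00000003644 had 31.3 ± 5.0 and 14.5 ± 1.2 CPM (SD, n = 4 each). By the same measure Tmed1 (r = 0.91) came after 519 other genes, the nearest of the family.

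In the RefSeq table of GRCm38.p6, the assembly known as mm10, all 7 genes are protein coding. Tmed9 lies on chromosome 13 from 55593135 to 55597697 on the plus strand, and no other listed gene overlaps it. Tmed4 lies on chromosome 11 from 6270714 to 6274837 and Tmed5 on chromosome 5 from 108121556 to 108132620, both on the minus strand. Neither these nor Tmed2, Tmed10 and Tmed3 are overlapped by another listed gene. Tmed1 lies on chromosome 9 from 21507380 to 21510234 on the minus strand and overlaps the plus-strand gene Dnm2 by 380 bases. Those 380 bases are an overlap of whole gene spans, and whether the exons that were counted share them was not checked. The strand setting of the counting was not given in the sources used here. It is thus unknown for which gene, if any, reads from those bases were counted. Their part in the higher value of Tmed1 was not tested. Reads shared with near-identical copies elsewhere in the genome could likewise be missing from or added to any of the 7 genes.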

How the data were processed

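The authors deposited one file of raw read counts per gene for each of the 8 libraries, without normalization. Per the submitters' processing notes, featureCounts (version 1.5.0-p1), STAR (version 2.5.2a) and bcl2fastq (version 2.17.1.14) were used, with build mm10; the annotation, strand setting and treatment of multiply mapped reads are not given in the sources used here. Groups and library numbers come from the sample titles. Counts were filtered with filterByExpr (minimum count 10, minimum total 15), scaled by TMM and tested over all 16716 genes with edgeR 4.0.16 in R 4.3.3, with no covariate and Benjamini-Hochberg adjustment, read at 0.05. SE is the fold change divided by the square root of F; log2 CPM used a prior count of 2. Alternatives included DESeq2 1.42.0, limma-voom with sample weights (limma 3.58.1), other scalings and filters, thinning, the replicate number as a block, and leaving out libraries. The members, lists and tests were chosen with earlier results of these data known; the pairwise ratios were added after the values had been seen. Named were the 7 members and the 2 genes most like Tmed9. Lists of coat, cargo receptor and other secretory genes and of cell type markers, written by symbol, were not analysed here, since the table of names held no Ensembl IDs. Counts without molecular identifiers are not independent molecules.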

Additional observations from a re-analysis of the deposited data

How the results depend on the processing

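Tmed9 kept a log2 fold change of 2.14 to 2.34 over all 18 alternatives, which moved it by less than the spread between libraries. The signs of the other 6 genes also held in all 18, and Tmed2, Tmed3 and Tmed4 passed the test in none of them. One family member was called higher, against 0 to 1 when 1 library was left out, and 1 was called lower, against 0 to 2 when 1 library was left out. With DESeq2, limma-voom with sample weights, no filter, or without both libraries numbered 1, 2 were called lower, Tmed10 joining Tmed5. Over all genes, 2297 were called, 880 to 4046 when 1 library was left out, 6374 with limma-voom and sample weights and 5463 without both libraries numbered 1; the cause was not tested. Upper-quartile scaling moved the median fold change over all genes (log2) from -0.03 to -0.11 and the share of calls that were higher from 57.6% to 42.8%, and no p24 gene changed its call under it.

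Deviations of same-numbered libraries correlated at 0.34, 0.095, 0.34 and 0.22. Each of the 8 libraries was most like the one of its number in the other group. As 1 correlation was under 0.1, the main test left the libraries unpaired. That cutoff does not show that same-numbered libraries are unrelated, and the unpaired fit ignores any relation between them. Whether same-numbered libraries share a source is not stated. With the replicate block 4495 genes were called, and 2 p24 genes were lower, Tmed5 and Tmed10 (edgeR adjusted p = 0.00611 for Tmed10, log2 fold change -0.64). The fewest reads behind a value were 214, for Tmed2.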
